A study of Mus musculus with 81 samples.

Results

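The genes described here encode the kainate receptors and their auxiliary proteins: the subunit genes Grik1, Grik2, Grik3, Grik4 and Grik5 and the transmembrane genes Neto1 and Neto2. They were chosen by name, because Grik1 lies in the chromosome segment that is triplicated in Ts65Dn mice, and all 7 were found among the 57010 genes of the deposited tables. Every gene passed the filter on low counts in every comparison below, which asks for more than 0.1 CPM (read counts scaled to library size) in at least 10 libraries.

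Kainate receptors are tetrameric glutamate-gated cation channels. GluK1, GluK2 and GluK3, the products of Grik1 to Grik3, can form channels on their own, whereas GluK4 and GluK5, the high-affinity subunits encoded by Grik4 and Grik5, need a partner from the first set. Neto1 and Neto2 are single-pass membrane proteins that bind the receptors and slow their gating. In the hippocampus the mossy fiber synapse, which joins dentate granule cells to CA3 pyramidal neurons, is the best known site of postsynaptic and presynaptic kainate receptor function.

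Neurons were captured by laser microdissection from Nissl-stained frozen sections of male mice at about 6 months of age (6 MO), as CA1 pyramidal neurons (CA1 PNs), CA3 pyramidal neurons (CA3 PNs) and dentate gyrus granule cells (DGCs), and total RNA was sequenced as 1 library per mouse and population. In Ts65Dn mice (Ts) many chromosome 16 genes, Grik1 among them, are present in 3 copies because a small additional chromosome is inherited, which also brings some chromosome 17 genes unrelated to human trisomy 21, and 2N mice are disomic offspring of the same crosses of Ts65Dn dams with C57Bl/6J Eicher × C3H/HeSnJ F1 males. Dams and pups received a choline normal diet (ChN, 1.1 g/kg choline chloride) or a choline-supplemented diet (ChP, 5.0 g/kg) from conception to weaning, and all offspring ate the control diet afterwards. The 28 mice comprised 6 2N ChN, 6 Ts ChN, 7 2N ChP and 9 Ts ChP animals, and they gave 81 libraries of 358355 to 4744036 counts. Per group there were 6, 5, 7 and 9 libraries of CA1 PNs, 6, 6, 7 and 7 of CA3 PNs, and 6, 6, 7 and 9 of DGCs, in the same order.

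A stretch of the pore region is printed so that the 5 transcripts can be compared. Each line below is a stretch of 108 coding bases from the Gencode vM39 reference transcripts (GRCm39), 5′ to 3′, whose last 9 codons, in capitals, encode the conserved motif at the end of the third membrane segment.
Grik1: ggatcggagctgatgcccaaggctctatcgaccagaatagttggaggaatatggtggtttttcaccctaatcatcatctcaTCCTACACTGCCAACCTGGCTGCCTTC
Grik2: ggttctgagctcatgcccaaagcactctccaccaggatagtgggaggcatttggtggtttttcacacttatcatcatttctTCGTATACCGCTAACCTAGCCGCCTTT
Grik3: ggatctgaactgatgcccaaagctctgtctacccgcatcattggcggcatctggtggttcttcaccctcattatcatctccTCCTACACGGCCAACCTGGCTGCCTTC
Grik4: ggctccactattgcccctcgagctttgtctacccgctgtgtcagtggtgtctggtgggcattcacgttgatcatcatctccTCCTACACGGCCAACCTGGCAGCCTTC
Grik5: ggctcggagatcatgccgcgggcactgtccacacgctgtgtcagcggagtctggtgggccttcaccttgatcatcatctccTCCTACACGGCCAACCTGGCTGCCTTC
The stretch spans an exon junction in each gene. Grik1 as a whole occupies chr16:87692788-88087153 on the minus strand. It lies in exons 12 and 13 of Grik1 (chr16:87732897-87737426, minus strand), 13 and 14 of Grik2 (chr10:49116786-49120421, minus strand), 12 and 13 of Grik3 (chr4:125585006-125587861, plus strand), 16 and 17 of Grik4 (chr9:42455165-42458915, minus strand), and 15 and 16 of Grik5 (chr7:24715344-24721918, minus strand). Within the 108 bases the identity ran from 60.2% (Grik2 and Grik4) to 84.3% (Grik1 and Grik3). It did not follow the low-affinity and high-affinity sets throughout, since Grik3 and Grik5 shared 76.9% and Grik2 and Grik3 75.9%. Over the whole coding sequence the identity was 72.8% between Grik1 and Grik2 and 73.4% between Grik4 and Grik5, against 64.4% between Grik1 and Grik4. In the encoded proteins the corresponding values were 78.5%, 71.5% and 46.2%. The longest stretch that any 2 of the 5 transcripts shared was 46 bases, between Grik2 and Grik3. All 567 deposited counts of the 7 genes (81 libraries each) were whole numbers. The strand setting of the counting is not given in the sources used here, so reads from the bases that Grik5 shares with Zfp574, a protein-coding gene on the opposite strand, may not be told apart.

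Marker genes were checked before the comparisons were read. The list of a library's own cell type had the highest mean of the 4 principal neuron lists in all 26 CA3 and all 28 DGC libraries, but in only 21 of the 27 CA1 libraries; in the other 6, markers of CA2 pyramidal neurons were highest. In all, 10 CA1 libraries had a mean CA2 marker level of 5.58 to 7.83 log2 CPM, and the other 17 had no more than 3.17. They were 2 of 6 2N ChN, 1 of 5 Ts ChN, 3 of 7 2N ChP and 4 of 9 Ts ChP libraries, so the LFCs of CA1 PNs against the other populations are also given without them. The CA3 library of mouse 15-145 is labelled Ts whereas its other libraries are labelled 2N, and it was counted as 2N here. In captured cells of this kind, fewer cells of a type and less RNA per cell cannot be told apart.

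**Figure D1:**
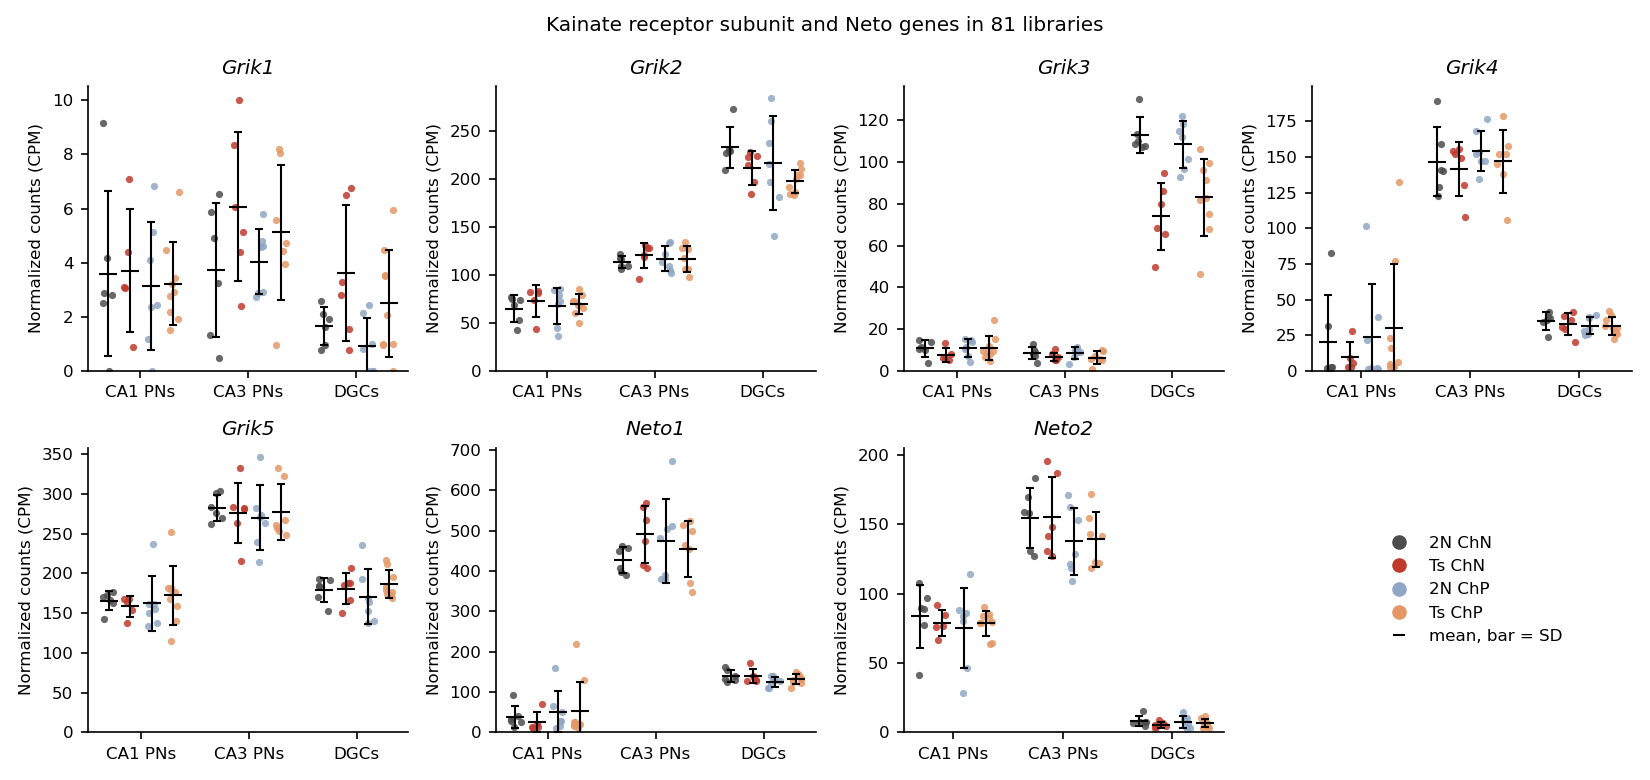
Normalized counts (CPM, linear axes from 0) of the 7 genes in CA1 PNs, CA3 PNs and DGCs, with a point for each of the 81 libraries, coloured by genotype and diet, and the group mean with its SD. Grik3 is high only in DGCs, Neto2 is lowest there, Grik4 and Neto1 peak in CA3 PNs, and Grik1 reaches no more than 10.02 CPM in any library.

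The first comparison asked how the subunits are distributed among the 3 populations. Grik2 and Grik3 were highest in DGCs, Grik4, Grik5, Neto1 and Neto2 were highest in CA3 PNs, and Grik1 was low in all. In 2N ChN mice, 5 of the 7 genes differed between CA1 and CA3 PNs at an adjusted p under 0.05 (edgeR quasi-likelihood test, Benjamini-Hochberg over all genes tested), where 23.3% of all genes did. Between CA1 PNs and DGCs 4 of 7 differed against 34.3% of all genes, and between CA3 PNs and DGCs 6 of 7 differed against 43.7%. The counts were much the same in the other groups of mice. Against CA3 PNs, 5 of 7 genes were called for CA1 PNs in 2N ChP (background 22.9%), Ts ChN (25.3%) and Ts ChP mice (24.5%). For CA1 PNs against DGCs, 5 were called in 2N ChP (31.8%), 5 in Ts ChN (33.7%) and 4 in Ts ChP (39.3%). For CA3 PNs against DGCs the counts were 7 in 2N ChP (40.4%), 6 in Ts ChN (44.5%) and 7 in Ts ChP (44.2%).

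Grik2, whose product GluK2 is the principal pore-forming subunit of the hippocampus, rose in steps from CA1 PNs to CA3 PNs to DGCs. In 2N ChN mice its normalized counts ran from 42.4 to 76.8 CPM in CA1 PNs (median 71.3), from 106 to 122 in CA3 PNs (median 113), and from 209 to 273 in DGCs (median 229), and the 3 ranges did not overlap. The log2 fold change (LFC) of CA1 versus CA3 PNs was −0.80 ± 0.12 (SE, 6 libraries each; adjusted p = 2.20e-06), and that of CA3 PNs versus DGCs was −1.07 ± 0.11 (adjusted p = 4.05e-10). All 3 pairwise differences passed in each of the 4 groups of mice.

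Grik3 encodes GluK3, a subunit of low glutamate sensitivity found at presynaptic sites. It was a gene of DGCs: 107 to 130.0 CPM there (median 109.5) against 3.82 to 13.1 in CA3 PNs and 3.84 to 14.9 in CA1 PNs of 2N ChN mice. The LFC of CA3 PNs versus DGCs was −3.79 ± 0.19 (adjusted p = 1.34e-18) and that of CA1 PNs versus DGCs was −3.40 ± 0.20 (adjusted p = 1.22e-16). CA1 and CA3 PNs were not told apart, with LFCs between 0.26 and 0.68 over the 4 groups and adjusted p of 0.111 or more.

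Grik4, which encodes the high-affinity subunit GluK4, was highest in CA3 PNs. Its values in 2N ChN mice were 122.5 to 189.5 CPM in CA3 PNs (median 140.2), 23.5 to 41.4 in DGCs (median 36.4) and 0 to 82.5 in CA1 PNs (median 2.69). CA3 PNs exceeded DGCs by an LFC of 2.05 ± 0.54 (adjusted p = 0.00576), and CA1 versus CA3 PNs gave −2.84 ± 0.59 (adjusted p = 0.00191). The CA1 values split by the CA2 markers. In the 10 CA1 libraries with raised CA2 markers Grik4 ran from 16.2 to 132 CPM (median 34.6), and in the other 17 from 0 to 9.34 (median 2.64), without overlap. In Ts ChN mice, where all 5 CA1 libraries can be listed, Grik4 was 28.3 CPM in the 1 library with raised CA2 markers (mouse 16-357) and 2.46, 2.64, 5.27 and 9.34 in the others. Across the 27 CA1 libraries Pearson's r between log2 CPM of Grik4 and the CA2 marker mean was 0.947 (Spearman's rho 0.748), and within the 17 libraries it was 0.29. These points differ in capture, depth and mouse, and the correlation is a description only.

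Leaving out the 10 libraries, a choice made after seeing the data, changed the order of Grik4. With all libraries, CA1 PNs and DGCs differed in only 1 of the 4 groups (Ts ChN, LFC −1.775 ± 0.448, adjusted p = 0.00586), and in Ts ChP mice the LFC was 0.06 ± 0.55. Without the 10, Grik4 was lower in CA1 PNs than in DGCs in all 4 groups: −4.15 ± 0.35 in 2N ChN, −3.96 ± 0.33 in 2N ChP, −2.82 ± 0.29 in Ts ChN and −2.98 ± 0.24 in Ts ChP, with adjusted p of 7.92e-12 or less. The LFC of CA1 versus CA3 PNs moved from −2.84 to −6.23 ± 0.28 in 2N ChN mice. The CA2 markers and Grik4 moved together, and CA3 markers were raised in the same 10 libraries. What share of Grik4 in the CA1 libraries came from CA2 or CA3 neurons was not tested.

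**Figure D2:**
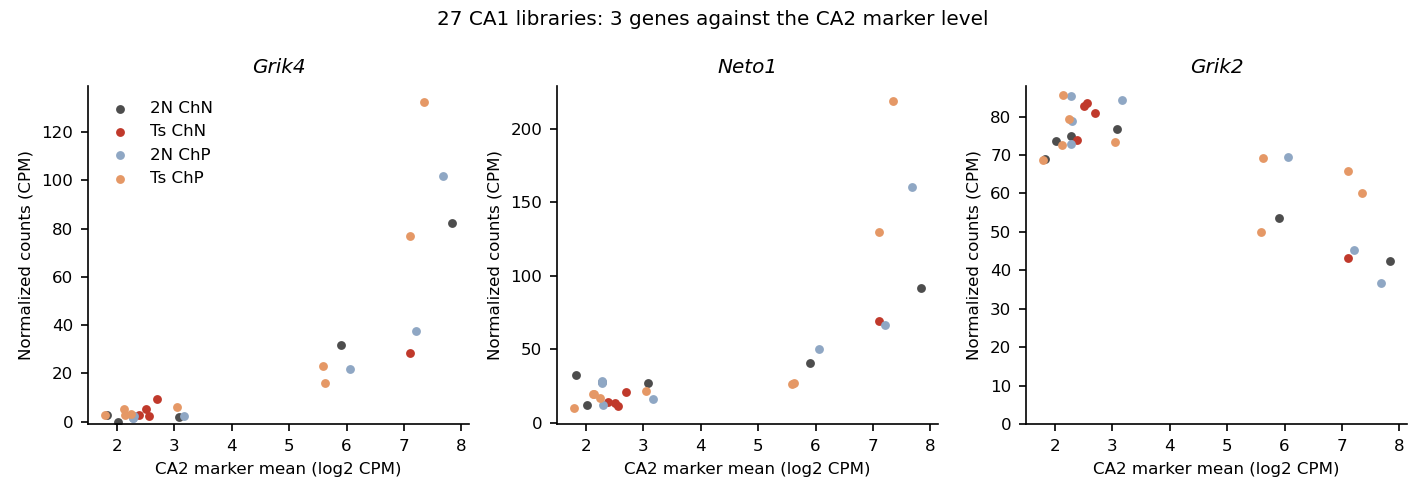
Normalized counts (CPM) of Grik4, Neto1 and Grik2 in the 27 CA1 libraries against the mean log2 CPM of 6 CA2 marker genes, coloured by genotype and diet. The 10 libraries at 5.58 log2 CPM or more hold the highest Grik4 values (16.2 to 132 CPM), and their Grik2 values (36.8 to 69.6 CPM) lie below nearly all others (68.6 to 85.5 CPM).

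Grik5 encodes GluK5, the other high-affinity subunit. It was the most evenly spread member, at 143 to 176 CPM in CA1 PNs, 262.5 to 303 in CA3 PNs and 153 to 193 in DGCs of 2N ChN mice. CA3 PNs stood above both others without overlap, with an LFC of 0.63 ± 0.09 over DGCs (adjusted p = 9.89e-07) and of −0.77 ± 0.10 for CA1 versus CA3 PNs (adjusted p = 5.92e-08). CA1 PNs and DGCs differed in none of the 4 groups at adjusted p under 0.05 (LFC −0.22 to −0.10). With library totals in place of TMM scaling, Grik5 was called lower in CA1 PNs than in DGCs in 3 of them (LFC −0.31 to −0.28).

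The auxiliary genes Neto1 and Neto2 divided the populations differently. They lie on chromosomes 18 and 8 (Neto1, plus strand, and Neto2, minus strand). Neto1 ran from 389 to 463 CPM in CA3 PNs of 2N ChN mice, 125 to 163 in DGCs and 12.3 to 91.6 in CA1 PNs. CA3 PNs exceeded DGCs by an LFC of 1.575 ± 0.247 (adjusted p = 6.31e-05), and CA1 PNs were below CA3 PNs by −3.46 ± 0.28 (adjusted p = 7.97e-08). In CA1 libraries with raised CA2 markers Neto1 was 26.1 to 219 CPM (median 67.9), and in the others 10.2 to 32.6 (median 19.2). Without the raised libraries the LFC of CA1 versus CA3 PNs was −4.10 ± 0.14 in 2N ChN mice.

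Neto2 was a gene of the pyramidal neurons. It reached 127 to 183 CPM in CA3 PNs and 41.2 to 107 in CA1 PNs, but 4.87 to 15.2 in DGCs of 2N ChN mice. CA3 PNs versus DGCs gave an LFC of 4.20 ± 0.21 (adjusted p = 3.39e-17), and CA1 PNs versus DGCs one of 3.31 ± 0.22 (adjusted p = 5.96e-14). On the TPM scale, which allows genes to be compared per length, the median share of Neto2 in the sum of both Neto genes was 71.7% for CA1 PNs of 2N ChN mice. It was 23.9% for CA3 PNs and 6.68% for DGCs. Neto1 exceeded Neto2 in all 26 CA3 and all 28 DGC libraries and in 4 of 27 CA1 libraries. The effective length assigned to Neto1 varied from 1487 to 8170 bases among the 2N ChN CA1 libraries. It varied from 2704 to 4109 among the CA3 libraries and from 2845 to 7293 among the DGC libraries of these mice. The TPM values of Neto1 in CA1 PNs and DGCs are therefore the less certain.

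Grik1, the triplicated member, encodes GluK1, a subunit best known from interneurons and sensory neurons. The median raw count per library of 2N ChN mice was 3.5 for CA1 PNs, 5 for CA3 PNs and 2 for DGCs. No library held more than 27 counts, and 6 of the 81 had none. A count of 0 there allows up to 3 counts, or 2.88 to 5.52 CPM (counting error only). Grik1 was called higher in CA3 PNs than in DGCs in 2N ChP (LFC 2.32 ± 0.67, adjusted p = 0.0044) and Ts ChP mice (LFC 1.02 ± 0.42, adjusted p = 0.0424), and not in the ChN groups (LFC 1.19 ± 0.60 in 2N and 0.79 ± 0.46 in Ts). The Ts ChP call was lost with DESeq2, library totals or no filter (adjusted p 0.0579 to 0.11).

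Without the 10 CA1 libraries with raised CA2 markers, 5 of 7 genes were called between CA1 and CA3 PNs in each of 4 groups. Between CA1 PNs and DGCs 5 of 7 were called. The share of all genes called in these fits with fewer libraries is not given here. With all libraries it was 22.9% to 25.3% for the first pair and 31.8% to 39.3% for the second. Grik2 itself was lower in the 10 libraries (36.8 to 69.6 CPM, median 51.7) than in nearly all of the other 17 (68.6 to 85.5 CPM, median 76.8), and without them its LFCs were −0.64 to −0.56 against CA3 PNs and −1.68 to −1.41 against DGCs, called in all 4 groups. Grik3 was at a median of 13.5 CPM in the 10 and 7.997 in the 17, and without the 10 its LFCs against DGCs were −3.70 to −3.24, all called, with none called against CA3 PNs. Grik5 kept its calls against CA3 PNs (−0.89 to −0.74) and had none against DGCs (−0.25 to −0.16). Neto2 was called in all groups, at −0.92 to −0.75 against CA3 PNs and 3.302 to 3.899 against DGCs. Grik1 was at a median of 4.80 CPM in the 10 and 2.78 in the 17. With all libraries it was called higher in CA1 PNs than in DGCs of 2N ChP mice (LFC 2.05 ± 0.70, adjusted p = 0.0211), and without the 10 it was not (1.46 ± 0.86, adjusted p = 0.22).

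**Figure D3:**
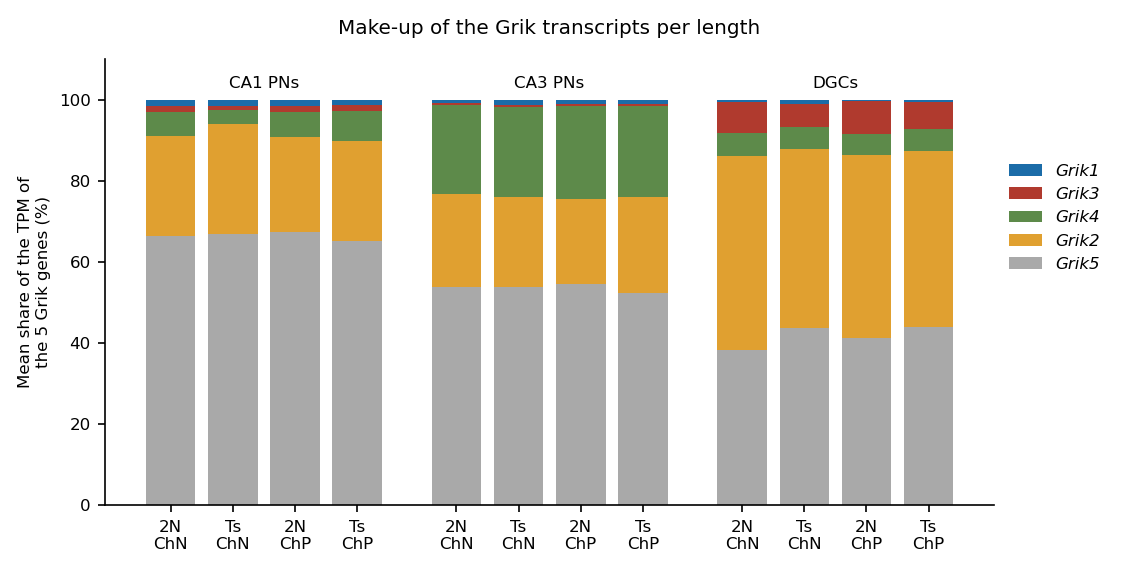
Mean share of each Grik gene in the summed TPM of the 5 Grik genes (%), as stacked bars for each population, genotype and diet. Grik5 and Grik2 make up most of each bar, Grik4 is widest in CA3 PNs, and Grik3 is widest in DGCs.

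Per length, the 3 populations carried different mixtures of subunit transcripts. In CA1 PNs of 2N ChN mice Grik5 was a median of 66.9% of the TPM of the 5 Grik genes and Grik2 24.9%, with each of the other 3 at a median under 2%. Grik4 was 10.36% and 24.24% in the 2 of these libraries with raised CA2 markers and 0% to 0.896% in the other 4. In CA3 PNs the shares were 54.3% for Grik5, 21.9% for Grik4 and 20.5% for Grik2. In DGCs they were 47.8% for Grik2, 37.75% for Grik5, 7.80% for Grik3 and 5.85% for Grik4. Within libraries, Grik5 exceeded Grik2 in all 27 CA1 and all 26 CA3 libraries, whereas in DGCs Grik2 exceeded Grik5 in 15 of 28, so those neighbours in the order were not separated. Likewise Grik2 exceeded Grik4 in 13 of 26 CA3 libraries. Grik3 exceeded Grik4 in 25 of 28 DGC libraries, and Grik1 was below Grik4 in all 28. These shares rest on 155 to 2317 Grik counts per library. They differed by less than 1 SD with FPKM or counts per kilobase of effective length in place of TPM. All of these measures use the same effective lengths, so that outcome was fixed in advance and does not check the lengths. Among the 2N ChN CA3 libraries the effective length assigned to Grik2 ran from 1735 to 3932 bases and its share from 15.9% to 35.2%. The shares and the order of the genes therefore carry the uncertainty of these lengths.

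The second comparison asked whether genotype changed the members within a population (Ts versus 2N). A gene was called at an unadjusted p under 0.05 (edgeR), and adjusted p-values over all genes are given beside the LFCs. Grik3 was lower in Ts DGCs on both diets, Grik1 was higher in Ts DGCs on ChP, and Neto1 was higher in Ts CA3 PNs on ChN. In DGCs 1 of 7 genes passed on ChN, where 8.5% of all genes did, and 2 of 7 on ChP, where 7.6% did. In CA3 PNs 1 of 7 passed on ChN (background 9.2%) and 0 of 7 on ChP (4.99%). In CA1 PNs 0 of 7 passed on either diet in edgeR, DESeq2 or limma-voom (3.77% on ChN, 3.6% on ChP). The median LFC of the 7 genes in DGCs was −0.12 on ChN and 0.00 on ChP, and that of all genes tested was 0.00 and 0.01.

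**Figure D4:**
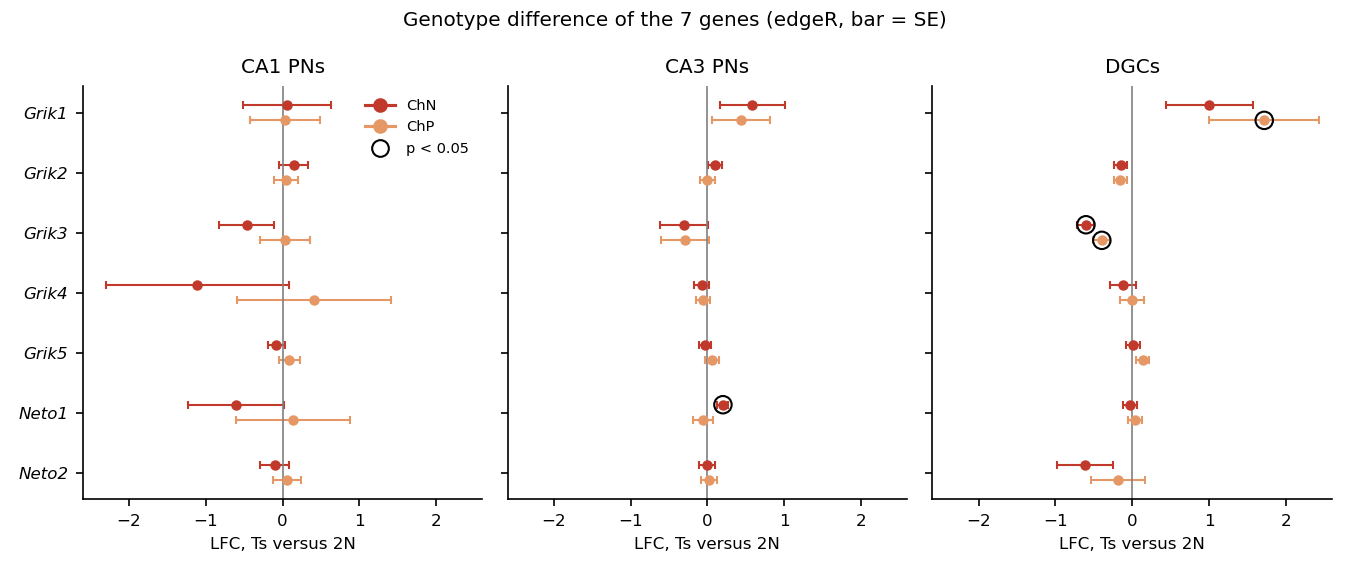
LFC of Ts versus 2N with its SE (bars) for the 7 genes in each population and diet, from edgeR. Circles mark an unadjusted p under 0.05: Grik3 on both diets and Grik1 on ChP in DGCs, and Neto1 on ChN in CA3 PNs. The widest bars belong to Grik1 and, in CA1 PNs, to Grik4 and Neto1.

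Grik3 showed the clearest genotype difference of the family. On ChN its values in DGCs were 49.8 to 94.55 CPM in Ts (median 74.2, mean 74.0 ± 16.1 SD, n = 6) and 107 to 130.0 in 2N (median 109.5, mean 113 ± 8.70 SD, n = 6). All 6 Ts libraries lay below every 2N library. The LFC was −0.60 ± 0.11 (adjusted p = 0.000628), and it stayed between −0.68 and −0.53 when any 1 library was left out, with adjusted p of 0.00574 or less each time. On ChP, in other mice, Ts DGCs ran from 46.4 to 106 CPM (median 82.9, mean 83.1 ± 18.35 SD, n = 9) and 2N DGCs from 92.9 to 122 (median 112, mean 108.5 ± 11.4 SD, n = 7). Here 6 of 9 Ts libraries were below every 2N library and the groups overlapped. The LFC was −0.40 ± 0.11, which passed the unadjusted threshold and missed the adjusted one (adjusted p = 0.0868).

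The ChP result depended on single libraries for its adjusted call: without Ts mouse 15-245 the LFC was −0.45 ± 0.11 (adjusted p = 0.0319), and without any other library the adjusted p lay between 0.0597 and 0.224. Inhibitory neuron markers were higher in the same Ts DGCs, at a mean of 3.13 to 3.68 log2 CPM over 8 markers against 2.66 to 3.28 in 2N, and with that mean as a covariate the LFC of Grik3 was −0.36 ± 0.14, still called before adjustment (adjusted p = 0.609). Their part in the result was not tested further. On ChN these markers were 2.88 to 3.46 log2 CPM in Ts and 2.85 to 3.52 in 2N, and the covariate left the LFC at −0.60 ± 0.11. A difference of the genotype effect between the diets was not detected (interaction LFC 0.21 ± 0.16, adjusted p = 0.9997). Averaged over both diets in 1 fit, a comparison added after seeing the data, Grik3 was lower in Ts DGCs by an LFC of −0.49 ± 0.08 (adjusted p = 6.02e-06). As a share of Grik TPM, Grik3 was 5.63% ± 1.02 (SD, n = 6) in Ts against 7.77% ± 0.90 (n = 6) in 2N on ChN (2-sided exact permutation test, p = 0.00649, adjusted over 2 tests p = 0.013). On ChP the shares were 6.61% ± 1.37 (n = 9) and 8.10% ± 0.81 (n = 7; exact permutation p = 0.0178, adjusted p = 0.0178). The shares had been planned as a description, and they were tested only for Grik3 in DGCs. These are the libraries in which its counts were called, so the test is not separate support. Its adjustment does not cover the other genes and populations.

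**Figure D5:**
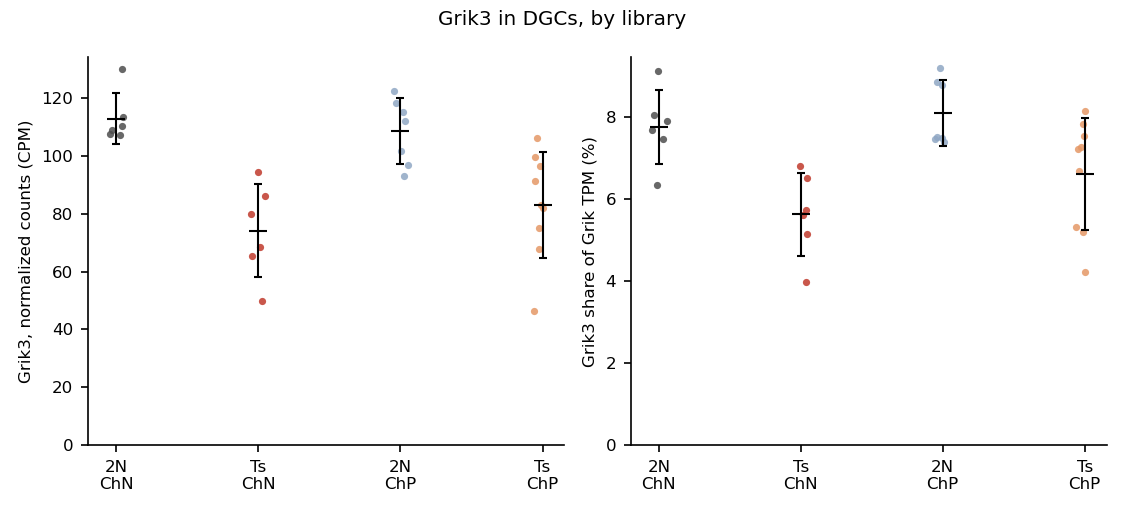
Grik3 in DGCs, with a point for each library and the group mean with its SD: normalized counts (CPM, left) and the share of Grik3 in the TPM of the 5 Grik genes (%, right). On ChN the 6 Ts libraries (49.8 to 94.55 CPM) lie below all 6 2N libraries, and on ChP the groups overlap between 92.9 and 106 CPM.

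In pyramidal neurons Grik3 was close to the limit of these libraries, at 1.11 to 24.6 CPM over all groups. Its LFC for Ts versus 2N was −0.30 ± 0.31 on ChN and −0.29 ± 0.32 on ChP in CA3 PNs, and −0.47 ± 0.36 and 0.03 ± 0.32 in CA1 PNs. With the inhibitory marker mean as a covariate the value in CA3 PNs on ChN changed sign, to 0.61 ± 0.52. None passed the test. Nor was the genotype difference of DGCs distinguishable from that of CA3 PNs (difference of LFCs 0.28 ± 0.31 on ChN, adjusted p = 0.9999) or of CA1 PNs (0.15 ± 0.33, adjusted p = 1.0), so a difference confined to DGCs was not shown.

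For Grik1, equal output from each of 3 copies would give an LFC of 0.58 against 2 copies. In DGCs on ChN its raw counts were 1, 2, 5, 5, 6 and 6 in Ts and 1, 1, 2, 2, 2 and 3 in 2N, and the LFC was 1.005 ± 0.567, not called (adjusted p = 0.667). On ChP the 9 Ts libraries held 0 to 8 counts (median 2) and the 7 2N libraries 0 or 1 each, 24 counts against 4 in all. The LFC was 1.72 ± 0.71, called before adjustment only (adjusted p = 0.465). The call was lost with limma-voom (LFC 1.10 ± 0.56) and with the inhibitory marker mean as a covariate (LFC 1.49 ± 0.88). The averaged fit gave 1.375 ± 0.479 (adjusted p = 0.168).

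In CA3 PNs Grik1 ran from 2.40 to 10.02 CPM in Ts and 0.465 to 6.535 in 2N on ChN (LFC 0.59 ± 0.43, adjusted p = 0.757), and the LFC on ChP was 0.43 ± 0.37 (adjusted p = 0.999). With the library of mouse 15-145 counted as Ts, as labelled, the ChN value was 0.97 ± 0.46, called before adjustment (adjusted p = 0.754). With the inhibitory marker mean as a covariate it was 0.02 ± 0.66. In CA1 PNs the LFC was 0.06 ± 0.58 on ChN and 0.03 ± 0.45 on ChP. An interval of 2 SE on each side held 0.58 in all 6 population and diet comparisons and held 0 in 5 of them. At this depth an increase in step with gene copy and no increase could not be told apart in 5 of the 6 comparisons. In DGCs on ChP, where 0 lay outside the interval of edgeR, it lay inside with limma-voom and with the inhibitory marker covariate. In the averaged fits, added after seeing the data, 0 lay outside the interval for DGCs (0.42 to 2.33). It lay inside for CA1 and CA3 PNs, and 0.58 lay inside for each population.

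Neto1 in CA3 PNs was 407.0 to 567.9 CPM in Ts (median 499.5) and 389 to 463 in 2N (median 427) on ChN, and 4 of 6 Ts libraries were above every 2N library. The LFC was 0.20 ± 0.07 (called before adjustment, adjusted p = 0.274). On ChP Neto1 was not called, with 348.5 to 523 CPM in Ts, 380 to 671 in 2N and an LFC of −0.06 ± 0.13 (adjusted p = 0.999). Inhibitory markers were lower in Ts CA3 PNs on ChN (3.49 to 3.92 log2 CPM against 3.69 to 4.89 in 2N). With their mean as a covariate the LFC of Neto1 was 0.12 ± 0.11, and in a fit of both diets together it was 0.20 ± 0.13, neither of them called.

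None of the remaining members was called in DGCs or CA3 PNs within either diet. Grik2 in DGCs had an LFC of −0.15 ± 0.08 on ChN and −0.16 ± 0.09 on ChP, neither called, and −0.15 ± 0.06 in the averaged fit, called before adjustment (adjusted p = 0.314). In that averaged fit 3 of 7 genes were called in DGCs, where 10.5% of all genes did, 0 of 7 in CA1 PNs (4.9%) and 0 of 7 in CA3 PNs (8.09%). Grik5 had LFCs between −0.08 and 0.14 over the 6 comparisons and Grik4 in CA3 PNs and DGCs between −0.12 and 0.00. Neto2 in DGCs had an LFC as large as that of Grik3 but with a wide error, −0.62 ± 0.36 on ChN (adjusted p = 0.691; −0.77 ± 0.38 and called before adjustment without Ts mouse 17-192) and −0.19 ± 0.35 on ChP (adjusted p = 0.967), from levels of 2.15 to 15.2 CPM.

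In CA1 PNs the intervals of Grik4 and Neto1 were too wide for a statement. Their LFCs for Ts versus 2N on ChN were −1.11 ± 1.19 and −0.61 ± 0.63, and the CA2 marker means of those libraries ran from 1.83 to 7.83 log2 CPM in 2N and 2.39 to 7.11 in Ts. With the CA2 marker mean as a covariate, added after seeing the data, Neto1 was −0.51 ± 0.23 on ChN (adjusted p = 0.75) and Grik4 was 0.77 ± 0.23 on ChP (adjusted p = 0.234), both called before adjustment. Without the library of Ts mouse 16-357, Neto1 on ChN was −1.43 ± 0.49, called before adjustment. That was the 1 Ts ChN library with raised CA2 markers, whereas 2 of 6 2N ChN libraries had them. In that fit the raised libraries were thus all 2N, and genotype and CA2 marker level cannot be told apart.

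The third comparison asked whether the maternal choline diet changed the members, and none passed. Within 2N and within Ts mice, 0 of 7 genes had an unadjusted p under 0.05 for ChP versus ChN in any population with edgeR or DESeq2, and the lowest was 0.106 (Neto2 in 2N CA3 PNs, LFC −0.18 ± 0.11). The share of all genes called within 2N mice was 3.27% for CA1 PNs, 4.9% for CA3 PNs and 5.82% for DGCs, and within Ts mice 3.05%, 4.19% and 3.81%, so 0 of 7 is near the background. For the difference of the diet effect between Ts and 2N, 0 of 7 passed beside 3.22% of all genes for CA1 PNs, 4.87% for CA3 PNs and 3.97% for DGCs, and the lowest was 0.158 (Neto1 in CA3 PNs, −0.25 ± 0.17). Without the filter on low counts both of these passed before adjustment. Among DGCs the diet LFC of Grik3 was −0.05 ± 0.11 in 2N and 0.16 ± 0.11 in Ts. Grik1 in 2N DGCs had −1.10 ± 0.82, from 11 counts in 6 ChN and 4 counts in 7 ChP libraries.

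The difference of the genotype effect between populations was tested for each gene on each diet. Of 7 genes, 1 passed before adjustment for CA1 PNs against DGCs on ChP (4.95% of all genes) and 0 in the other 5 comparisons (5.51% for the same pair on ChN, 4.22% and 4.27% for CA1 against CA3 PNs and 5.18% and 4.42% for CA3 PNs against DGCs, ChN first). The lowest unadjusted p was 0.0412, for Grik1 on ChP, with a difference in LFC (CA1 PNs minus DGCs) of −1.70 ± 0.82 (adjusted p = 0.9996). With mouse as a block the value was −1.65 ± 0.87, which no longer passed.

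Proteins that bind, traffic or modify kainate receptors were followed as a list of 20 genes. In Ts versus 2N DGCs on ChN, 5 of the 20 were called before adjustment (2 higher, 3 lower), beside 8.5% of all genes, with a list median LFC of −0.05. On ChP 2 of 20 passed, both higher, beside 7.6% of all genes. Nrxn3 encodes a presynaptic neurexin of the complex that C1q-like proteins form with kainate receptors. It was higher in Ts DGCs on ChN (125 to 200.2 CPM against 90.7 to 145 in 2N, LFC 0.45 ± 0.11, adjusted p = 0.0356). On ChP its LFC was 0.27 ± 0.25 (adjusted p = 0.889). C1ql3, a mossy fiber ligand of this complex, had −0.26 ± 0.07 on ChN (adjusted p = 0.11) and −0.13 ± 0.07 on ChP (adjusted p = 0.713), and the averaged fit gave −0.19 ± 0.05 (adjusted p = 0.0399). Its partner C1ql2 had 0.58 ± 0.25 on ChN (called before adjustment, adjusted p = 0.568). In the averaged fit no partner gene, Nrxn3 included, was higher in Ts DGCs at an adjusted p under 0.05. In CA3 PNs 0 of the 18 genes tested passed on either diet in edgeR (9.2% of all genes on ChN, 4.99% on ChP), and in CA1 PNs 1 of 19 passed on each (3.77% and 3.6%).

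The same list separated the populations. In 2N ChN mice 16 of 20 partner genes differed between CA3 PNs and DGCs at an adjusted p under 0.05, 8 in each direction, beside 43.7% of all genes. C1ql2 was 89.4 to 230.5 CPM in DGCs and at most 2.08 in either pyramidal population. C1ql3 was 346.5 to 462.5 CPM in DGCs, 0 to 88.3 in CA1 PNs and 0 to 0.546 in CA3 PNs. Nrxn3 had the reverse pattern, at 90.7 to 145 CPM in DGCs against 470 to 749 in CA1 PNs and 556 to 719 in CA3 PNs. Prkca, a protein kinase C that phosphorylates kainate receptor subunits, was also lower in DGCs (LFC of CA3 PNs versus DGCs 2.21 ± 0.17, adjusted p = 3.20e-09).

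Over the 81 libraries, which share the 3 populations and their depth, the genes of most similar profile were ranked by Pearson's r of log2 CPM. Grik4 and Neto1 had the same first neighbour, the adenylate kinase gene Ak5 (r = 0.966 and 0.968), and they correlated with each other at 0.945. The next genes were Wscd1 for Grik4 (0.959) and Ephb1 for Neto1 (0.964). Grik3 was closest to Slc39a6 (0.949) and Magi1 (0.944), and its r with Neto2 was −0.928. Grik2 was closest to Mycbp2 (0.949) and Lingo2 (0.936), Grik5 to Ppp6r1 and Bsn (0.905 each), and Neto2 to Clstn1 (0.968) and Tmem178b (0.967). Grik1 had no neighbour of that kind, with Atp6v1g1 first at 0.606 and Vdac1 next at 0.585. After the population means were subtracted its highest values included 0.517 for Tbata, 0.468 for Vdac1, 0.463 for Atp6v1g1 and 0.462 for Arhgef6.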

How the data were processed

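RNA of laser-captured neurons was made into libraries with the SMARTer Stranded Total RNA-Seq Pico kit. Per the labels and the methods, the authors trimmed reads with Trimmomatic 0.39, aligned them with STAR and quantified genes with RSEM; the builds named are GRCm39 and mm10. The deposited expected counts are not normalized, 0.784% of them were not whole, and they were rounded here. The authors' TPM and FPKM values are scaled to library and transcript length, and the deposited effective lengths come from the same files. The 3 count matrices were identical to the files of the single libraries, and 0 columns of per-sample values were left unmapped.

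In each fit, genes that exceeded 0.1 CPM in 10 or more libraries were tested with the quasi-likelihood test of edgeR 4.0.16 after TMM (R 4.3.3), with Benjamini-Hochberg adjustment over all genes. Genotype was fitted per population and diet, diet per population, and populations per genotype and diet. The covariates of the study's limma-voom model are not in the files and were not used. Genotype and diet calls used an unadjusted threshold of 0.05, population calls an adjusted one. CPM in the text carry 1 TMM scaling over all 81 libraries. DESeq2 1.42.0, limma-voom 3.58.1, other filters and scalings, marker covariates and leaving out each library were alternatives. The code was tested on simulated data. Named genes were the 7 members in every comparison, partner genes with an adjusted p under 0.05 by genotype or a population pattern (C1ql2 is named beside C1ql3), and per member the genes of highest r (log2 CPM, prior count 2) among 16442 genes with a mean of at least 1. For Grik1, 1 such gene is not reported here. The members and lists were chosen with earlier results of these data known. Libraries of 1 mouse are paired: deviations from group means had a median r of 0.0541 over 78 same-mouse pairs and −0.0105 over 480 other pairs, and mouse as a block was an alternative. Intervals of counts cover counting error only, and totals of 358355 to 4744036 counts limit low genes such as Grik1.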

Additional observations from a re-analysis of the deposited data

Results flagged for a closer look

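In 13 of 84 groups of 5 to 9 libraries, 1 library stood apart from the rest of its group (Dixon's test on CPM). A chance rate of about 1 in 20 holds for independent, normally distributed values. These groups reuse the same libraries for correlated genes, so their number cannot be set against that rate. Of these groups, 8 were of CA1 PNs, and the 4 libraries that stood apart in them all had raised CA2 markers. The library of Ts ChN mouse 16-357 (CA2 marker mean 7.11 log2 CPM) was lowest for Grik2 at 43.27 CPM and highest for Grik4 at 28.32 and Neto1 at 69.23. That of 2N ChP mouse 15-336 (7.68) was highest for Grik4 at 101.8, Grik5 at 236.7 and Neto1 at 160.6. The library of 2N ChN mouse 17-21 (7.83) was highest for Neto1 at 91.64, and 1 Ts ChP library (7.35) for Grik5 at 252.0. The part of CA2 or CA3 neurons in these values was not tested.

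In CA3 PNs, 1 Ts ChN library was lowest for Grik2 at 95.97 CPM. In DGCs, 2N ChN mouse 17-154 was highest for Grik2 at 273.3 and Grik3 at 130.0, 2N ChN mouse 17-56 was highest for Neto2 at 15.17, and Ts ChN mouse 17-173 was highest for Neto1 at 173.1. Without mouse 17-154 the Grik3 difference of Ts versus 2N DGCs on ChN was −0.56 ± 0.12 (edgeR adjusted p = 0.00574). The genotype effect on Grik1 under ChP differed between CA1 PNs and DGCs by −1.702 ± 0.820 in LFC, tested as an interaction (edgeR adjusted p = 0.9996).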

How the results depend on the processing

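The counts of members called between populations stayed within 1.5 times under the alternatives run. With mouse as a replicate block, the paired fit, the genotype effect in CA1 PNs against DGCs on ChP went from 1 called member to 0, and no call of a member between populations changed. Without the CA1 libraries with raised CA2 markers, the LFC of Grik4 for CA1 PNs versus DGCs in Ts ChP mice reversed to −2.98 from 0.06. The CA2 marker covariate gave 1 called member in CA1 PNs on ChN and 1 on ChP, from 0. In CA3 PNs on ChN the count went from 1 to 0 with both diets in 1 fit and with the inhibitory marker covariate, and to 2 with the library of mouse 15-145 as Ts. In DGCs on ChP it went from 2 to 1 with the inhibitory covariate and with limma-voom. The count was also 1 with filterByExpr, which removed Grik1 before testing. Without the filter on low counts, 1 member was called for diet in 2N CA3 PNs and 1 for the difference of the diet effect in CA3 PNs, from 0. The share of all genes called in these alternative fits is not given here, so the counts are not read as results about the members. In the main fits of genotype it was 3.77% and 3.6% for CA1 PNs (ChN first), 9.2% for CA3 PNs on ChN and 7.6% for DGCs on ChP. The causes were not tested.

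Leaving out 1 library at a time gave 0 to 1 called members in CA1 PNs on ChN (1 without Ts 16-357, the 1 Ts library there with raised CA2 markers). It gave 1 to 3 in DGCs on ChN (3 without Ts 17-153) and 2 to 4 in DGCs on ChP. The 4 came without 2N 15-336, with Grik2 at −0.23 ± 0.08 and Grik5 at 0.23 ± 0.09. With all libraries 3.77%, 8.5% and 7.6% of all genes were called in these comparisons, in the same order. The shares with 1 library left out are not given here. Without 2N mouse 17-21, Grik4 was called lower in CA1 PNs than in DGCs of 2N ChN mice (−1.86 ± 0.60). Counts per library limit Grik1 in all populations and Grik3 in pyramidal neurons.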
